A study of Homo sapiens with 24 samples.

Results

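SBC-3 is an established human small cell lung cancer line, and its transcriptome without any knockdown is described here from the control libraries of a study on the paraspeckle components SFPQ, NONO and NEAT1. The members are the libraries of both control groups, 6 of the 24 libraries in the series, and every gene was described by its mean over these 6. Cells labelled WT were grown in DMEM with 10% fetal bovine serum and reverse transfected with an oligonucleotide at 10 nM using Lipofectamine RNAiMAX. Poly(A)-selected RNA was taken at 72 h and sequenced. ASO-Ctrl (3 libraries) received a control antisense oligonucleotide and siCtrl (3 libraries) a control small interfering RNA. All 6 libraries therefore come from transfected cells, and untransfected cells were not analysed here. The labels do not say that replicates came from separate cultures, so the spread among them may be technical. Nor do they give the sequences of the control oligonucleotides.

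Small cell lung cancers are usually high-grade neuroendocrine tumours, and they have been sorted by the transcription factor that dominates them: NEUROD1 in part of the neuroendocrine tumours, POU2F3 in tumours that resemble tuft cells, and YAP1 in tumours and lines that have lost neuroendocrine features. INSM1 is a zinc finger factor used as a nuclear marker of the neuroendocrine state. YAP1 is a coactivator of the Hippo pathway that binds DNA through TEAD factors and is usually low in neuroendocrine lines. Cell lines grown as monolayers and lines grown in suspension differ widely in these states, so the identity of a line has to be read from its own genes.

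Total counts ran from 9717221 to 14810746 in ASO-Ctrl and from 9999025 to 13525528 in siCtrl, 70818907 reads in all. Levels are given as CPM, the count of a gene scaled to the total of its library, and levels of different genes are compared as TPM, in which reads are first divided by the exonic length in the deposited files and then scaled to the same sum in every library. A gene without a read in all 6 libraries could still be present at up to 0.0424 CPM, the limit that 3 reads of the summed total allow; it covers counting error only. Of 60605 genes, 13607 reached a mean of 1 CPM and 29535 (48.7%) had no read. Among 19861 protein-coding genes, 11598 (58.4%) reached 1 CPM and 3978 (20.0%) had no read. Mitochondrially encoded genes took 8.65% ± 0.726 of the counts in ASO-Ctrl and 8.21% ± 0.757 in siCtrl (SD, n = 3 each; exact 2-sided permutation p = 0.5, where 0.1 is the smallest p that 3 against 3 can give). Libraries of the 2 groups pair by replicate number, and within pairs the mitochondrial share was higher in ASO-Ctrl in 3 of 3, by 0.341 to 0.559 percentage points (paired exact 2-sided permutation p = 0.25, the smallest that 3 pairs can give). Pearson's r of log2 levels across genes ran from 0.986 to 0.994 between pairs of libraries, and genes are not independent replicates. Where genes overlap, reads could be split or counted to the other strand's gene, since strand use in counting is not given: among genes named here with reads, VHL, VIM, HOXA10, B4GALNT1, HOXA11, HOXB6, KRT222 and EFNB2 share 24% to 36.4% of their exonic bases with other genes, and HOXA6, NKX2-1, CDK4, HOXA4 and JPX 40.1% to 60.5%.

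Of the markers that name the subtypes of this cancer, YAP1 was high, NEUROD1 low, and POU2F3, ATOH1 and INSM1 at or near 0, so the neuroendocrine state usual for the labelled cancer was not seen in these genes. YAP1 (chromosome 11, 102110447 to 102233424, hg38) had between 343 and 429 CPM in the 6 libraries, with a median of 381 CPM, a mean of 384 ± 35.2 CPM (SD, n = 6) and 213 TPM. It ranked 460th by TPM among 19848 nuclear protein-coding genes. NEUROD1 (chromosome 2, 181668295 to 181680827) was measured at a low level in every library, from 4.11 to 7.20 CPM with a median of 4.63 CPM, which is 2.24 TPM. POU2F3 had 10 reads in all. ATOH1, a proneural factor found in a minority of these cancers, and INSM1 had 0 reads in all 6 libraries, which allows at most 0.0424 CPM. Among these factors, YAP1 and NEUROD1 reached 1 CPM, POU2F3 lay below it, and ATOH1 and INSM1 had no read. The highest NEUROD1 value stayed far below the lowest YAP1 value, and ASO-Ctrl and siCtrl overlapped for both genes. The cells are therefore called SBC-3 control cells below, with no subtype name.

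**Figure D1:**
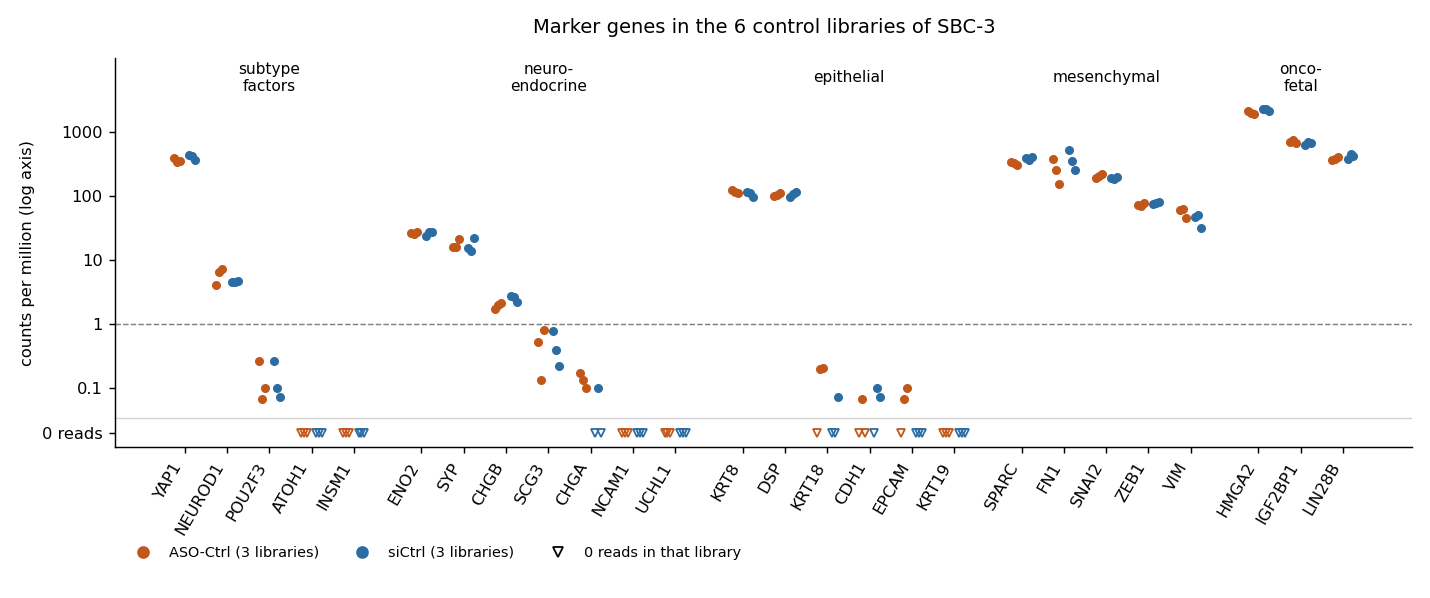
CPM of 26 marker genes in each of the 6 control libraries on a log axis, ASO-Ctrl in orange and siCtrl in blue, with open triangles for libraries without a read and a dashed line at 1 CPM. YAP1, SPARC, SNAI2, HMGA2 and LIN28B lie above 100 CPM in every library, while INSM1, ATOH1, NCAM1, UCHL1 and KRT19 have no read in any.

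Neuroendocrine effector genes were mostly low or without reads. Of 38 genes for dense-core granules, synaptic vesicles, neurofilaments and peptide processing, 14 reached 1 CPM and 12 had no read, with a median of 0.0921 TPM against 3.32 TPM over all protein-coding genes. BEX1, a small adaptor of the nervous system, was the highest of them per length at 189 TPM and between 37.4 and 48.2 CPM. ENO2, the neuron-specific enolase, followed at 21.6 TPM, and its 6 values were close together at 24.2 to 27.9 CPM with a median of 26.7 CPM. SYP, the vesicle protein synaptophysin, had 13.9 to 22.0 CPM with a median of 16.2 CPM, or 11.9 TPM. The granins differed from SYP: CHGB had a mean of 2.27 ± 0.387 CPM, SCG2 and SCG3 were below 1 CPM with 32 reads each, and CHGA had 6 reads in all. NCAM1 (CD56), GRP (gastrin-releasing peptide), UCHL1, SYT4, CALCA and SEZ6 had no read. DLL3, a Notch ligand that serves as a drug target in this cancer, was close to the 1 CPM line with 1.00 to 1.75 CPM and a median of 1.37 CPM.

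Among 24 neuroendocrine and neural transcription factors, 7 reached 1 CPM and 6 had no read, FOXA2, POU3F3, NKX2-2 and NEUROD4 among them. A single member stood high. SOX2 (chromosome 3, 181711925 to 181714436), a pluripotency and neural progenitor factor that is often amplified in lung cancers, had 417 to 472 CPM with a median of 434 CPM and 608 TPM. The next by TPM were LHX2 (15.2 TPM) and RCOR2 (12.2 TPM), a corepressor partner of REST. REST, which represses neuronal genes in other cells, had 60.7 to 71.4 CPM with a median of 68.1 CPM. NKX2-1, a lineage factor of the lung, had 22 reads in all. Tuft cell genes were also nearly absent: 2 of 15 reached 1 CPM, AVIL at a median of 3.54 CPM and PTGS1 at a median of 3.02 CPM, and POU2AF2, POU2AF3, BMX, CHAT and VAV1 had no read.

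The YAP and Hippo genes were on almost without exception. Of 20 members 19 reached 1 CPM and none was without reads, with a median of 27.1 TPM. After YAP1 came LIX1L (81.0 TPM), its paralogue WWTR1, also known as TAZ (59.0 TPM, 121 to 176 CPM), and MYOF (50.2 TPM), a membrane repair protein. The DNA-binding partners TEAD1 (42.3 TPM), TEAD2 (30.4 TPM), TEAD4 (21.8 TPM) and TEAD3 (11 TPM) were all measured, as were the inhibitory kinases LATS2 (35.2 TPM) and LATS1 (31.5 TPM). Classical target genes were at moderate levels: CCN1 had 26.6 TPM, CCN2 16.6 TPM and AXL 15.2 TPM, while ANKRD1 had 18 reads in all. CCN1 varied between libraries, from 13.6 to 41.2 CPM with a median of 30.7 CPM. The level of these RNAs says nothing of where the YAP1 protein was in the cell.

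Of 22 genes associated with non-neuroendocrine lines of this cancer, 18 reached 1 CPM. TGFBR2, a receptor for TGF-beta, led them at 167 TPM and 268 to 375 CPM, ahead of LGALS1 (51.0 TPM), ANXA2 (44.0 TPM) and NOTCH2 (38.8 TPM). The list was not uniform. CD44, an adhesion receptor, and CAV2, the partner of caveolin 1, had no read, S100A6 had 2 reads and ITGB4 had 4. CAV1 was at 1.62 CPM. In bulk samples such as these, fewer cells with a given RNA and less of it in each cell cannot be told apart.

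Epithelial genes split within the list. KRT8 (97 to 122 CPM, median 113 CPM, 57.1 TPM) and the desmosomal protein DSP (97.2 to 113 CPM, 27.5 TPM) were clearly measured in every library. KRT18, the type I keratin that usually pairs with KRT8, had 6 reads in all, and KRT19 had 0. KRT8 and KRT18 have many processed pseudogenes, and how reads that fit several places were counted is not given in the sources used here, so this contrast is uncertain. The adherens junction gene CDH1 (E-cadherin) had 3 reads and EPCAM 2. CLDN3, GRHL2, RAB25 and SPINT1 had none, and the splicing factors ESRP1 and ESRP2, which keep the epithelial exon pattern, had 5 reads each. In all, 10 of 30 epithelial genes reached 1 CPM, with a median of 0.156 TPM.

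The mesenchymal list was higher than the epithelial list, at a median of 3.24 TPM with 16 of 26 (61.5%) at 1 CPM or more. As a whole it was near the level of all protein-coding genes, which had a median of 3.32 TPM and 58.4% at 1 CPM or more. Single members stood above that level. SPARC, a matricellular protein, had 305 to 402 CPM with a median of 350 CPM and 268 TPM. SNAI2 (Slug), a repressor of CDH1, had 183 to 220 CPM with a median of 192 CPM and 210 TPM. FN1 (fibronectin) was spread most among the leading members, from 154 to 527 CPM with a median of 301 CPM and 65.5 TPM. The 6 FN1 values ran over a more than 3-fold range within both kinds of library together, and those of ASO-Ctrl and siCtrl overlapped. By replicate number FN1 had 384, 253 and 154 CPM in ASO-Ctrl, against 527, 349 and 254 CPM in siCtrl, lower in ASO-Ctrl in 3 of 3 pairs (paired exact 2-sided permutation p = 0.25). CDH2 (N-cadherin) had 39.5 TPM, ZEB1 30.5 TPM and VIM (vimentin) 33.7 TPM. Other members had no read: TWIST1, LUM, DCN and THY1, the last 3 being genes of fibroblasts. FAP had 3 reads and POSTN 4. The markers of blood, endothelium, muscle, liver, glia, gut and germ cells gave no gene at 1 CPM among 24, with ALB highest by mean at 0.551 CPM (40 reads), and CDX2, HBB and MYOD1 had no read.

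**Figure D2:**
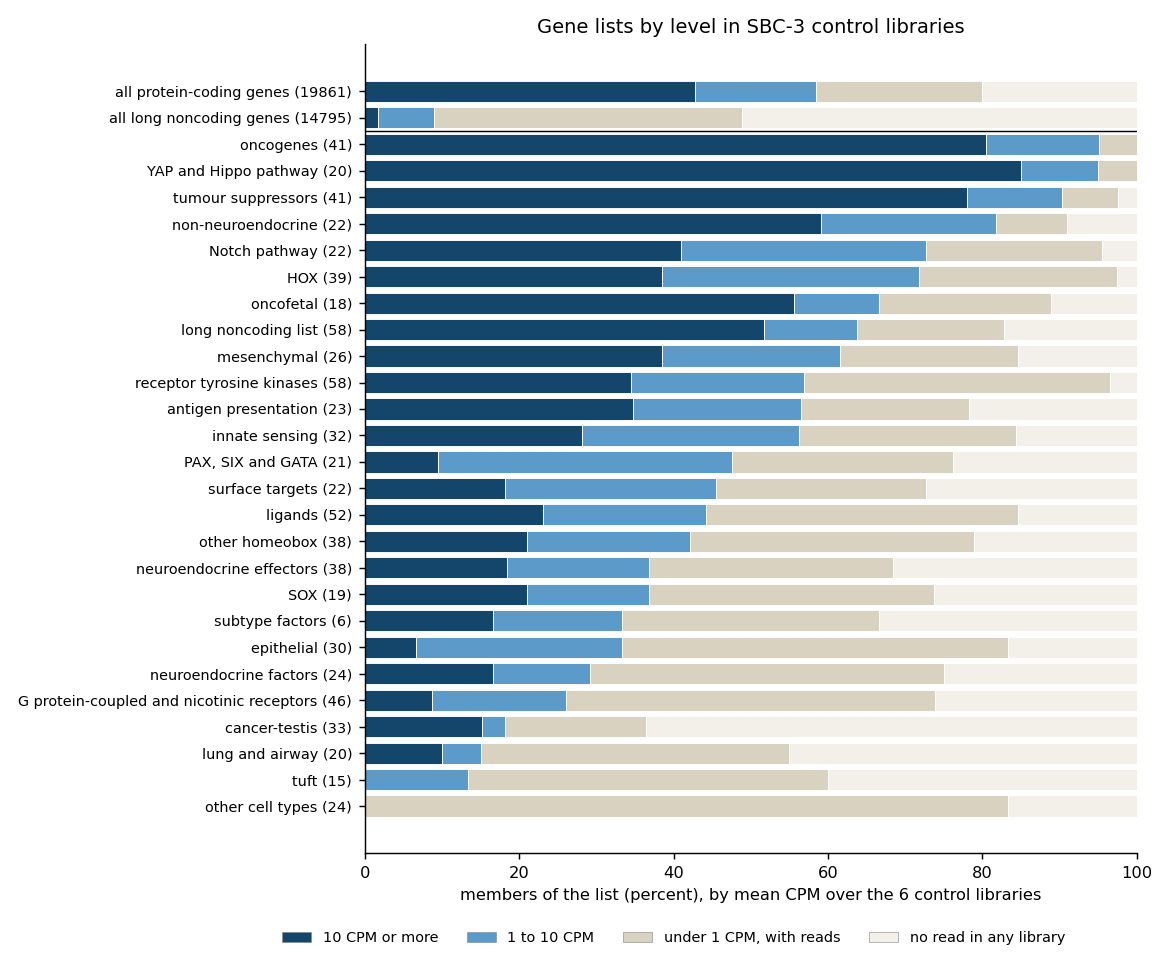
Share of the members of 26 gene lists at 10 CPM or more, from 1 to 10 CPM, under 1 CPM with reads, and without a read, by mean CPM over the 6 control libraries, with all protein-coding and all long noncoding genes at the top and the number of genes in brackets. Oncogenes and the YAP and Hippo list have 95% of members at 1 CPM or more, against 58.4% of protein-coding genes, and the markers of other cell types have none.

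Of 18 oncofetal genes, which are active in the embryo and silenced in most adult tissues, 12 reached 1 CPM, with a median of 14.4 TPM, and a few were high. HMGA2 (chromosome 12, 65824460 to 65966291), a chromatin architectural protein, had 1936 to 2285 CPM with a median of 2120 CPM and 494 TPM. HMGA1 had 332 TPM. The RNA-binding proteins IGF2BP1, IGF2BP3 and IGF2BP2 had 248, 108 and 106 TPM. LIN28B (236 TPM, 360 to 453 CPM) and LIN28A (151 TPM, 149 to 189 CPM), which bind precursors of the let-7 microRNAs and block their maturation, were both measured in every library. The list was not uniformly on, since DLK1, GPC3, PEG3 and DPPA4 had 3, 1, 0 and 0 reads. PEG3 shares 50.9% of its exonic bases with other genes and IGF2 72.1%, so their counts are uncertain. IGF2 varied from 40.4 to 92.5 CPM with a median of 63.9 CPM.

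HMGA2, LIN28B and IGF2BP1 are textbook let-7 targets, so the letters that let-7 pairs with are shown. Mature let-7a and let-7b share their first bases, and the seed (bases 2 to 8) stands in capitals. let-7b and 1 of the copies of let-7a are encoded within MIRLET7BHG on chromosome 22, which had a median of 7.11 CPM.
let-7a-5p: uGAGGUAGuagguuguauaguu
let-7b-5p: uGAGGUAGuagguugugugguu
A site in the 3′ untranslated region that pairs with this seed reads CTACCTC, in capitals below, with the bases before it and the base after it. The first such site of each gene lies at chr12:65963293-65963320, chr6:105078806-105078834 and chr17:49051055-49051083, all on the plus strand (GENCODE v29, GRCh38).
HMGA2: ggggcgccaacgttcgatttCTACCTCa
LIN28B: tcctttacccggttgcaaagtCTACCTCa
IGF2BP1: caatgctgtgtgcgaagtaaaCTACCTCa
Counting the sense strand of the longest untranslated region among the principal transcripts of each gene, each of these 3 genes held 4 such matches, and 12 of 18221 genes held 4 or more. At least 1 match was found in 8 of 16 oncofetal genes with a usable region, among them LIN28A, IGF2BP2, IGF2BP3, HMGA1 and SALL4 with 1 each, and in 8.69% of all genes. The oncofetal regions were longer, with a median of 2578 bases against 893 bases over all genes, and a longer region has more room for a match. Per kilobase there were 0.385 matches in the oncofetal list and 0.0625 over all genes. The oncofetal list contains genes known as let-7 targets, so neither its share nor its matches per kilobase are an independent result. Mature microRNAs were not measured in these libraries, and a match is a description of letters only.

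Of 41 oncogenes and cell cycle drivers 39 reached 1 CPM, with a median of 41.0 TPM. CCND1 (cyclin D1, which drives the G1 phase through CDK4 and CDK6) was highest at 314 TPM, with 413 to 440 CPM and a median of 428 CPM. NFIB, a transcription factor amplified in part of these cancers, followed at 239 TPM and 784 to 998 CPM. MCL1, an inhibitor of apoptosis, had 183 TPM. The MYC family differed among itself: MYC had 74.4 to 90.3 CPM (median 86.2 CPM, 64.5 TPM), MYCL 3.97 to 5.87 CPM (median 4.41 CPM, 3.16 TPM), and MYCN a single read. The D-type cyclins differed as well, with CCND3 at 11.7 TPM and CCND2 at 13 reads in all. FOS, an immediate early gene, was low at a median of 2.02 CPM.

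RB1, a tumour suppressor that is lost by mutation in most small cell lung cancers, was present as RNA. It (chromosome 13, 48303744 to 48599436) had 116 to 131 CPM with a median of 122 CPM and 66.6 TPM. Gene counts do not show whether this RNA carries a mutation or makes protein. VHL (95.9 TPM), SETD2 (79.3 TPM), RB1 and EP300 (65.0 TPM) were the highest of 41 suppressors by level, and 37 reached 1 CPM. CDKN2A, which encodes p16 and p14ARF, was low at 1.34 to 2.21 CPM with a median of 1.70 CPM. The chromatin remodeller SMARCA2 was low at a median of 1.67 CPM, while its paralogue SMARCA4 had 42.8 TPM and 168 to 206 CPM. FHIT, a gene across a fragile site, had no read. SLFN11, whose protein sensitises cells to DNA-damaging drugs, had 2 reads, and DAPK1 and CADM1 had 4 each.

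The gene of a secreted peptide had the highest level in the nuclear transcriptome. NTS (chromosome 12, 85874295 to 85882992), the precursor of neurotensin, a gut and brain peptide that acts as a growth factor in some tumours, had 18680 to 21550 CPM with a median of 19454 CPM. It took 1.92% ± 0.0447 of all reads in ASO-Ctrl and 2.06% ± 0.114 in siCtrl (SD, n = 3 each; exact 2-sided permutation p = 0.3; paired exact p = 0.5). It had 44844 TPM, and the next nuclear protein-coding gene, CXCL6, had 3777 TPM. NTSR1 and NTSR2, the G protein-coupled receptors for neurotensin, had no read in any library. The sorting receptors that also bind the peptide were measured: SORT1 had 110 to 125 CPM (45.1 TPM) and SORL1 27.5 to 84.5 CPM (8.93 TPM). The remaining genes among the 15 highest were PLA2G4A, a phospholipase that releases arachidonic acid (2991 TPM), ITM2A, ZPLD1, LIPA, a lysosomal lipase, SPINK6 and BEX3, beside the chaperones HSP90AB1 and HSP90AA1, TMSB4X, GAPDH, RPS12, RPS27 and RPS25. The 10 nuclear genes with most reads held 5.06% of the nuclear counts.

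Among genes with a single listed promoter, most at 1 CPM or more start in stretches rich in the dinucleotide CpG, and NTS does not. The promoters of NTS, YAP1 and UCHL1 are shown because their CpG content and their RNA run in different orders; CpG stands in capitals. Each runs from 250 bases before to 50 bases after the gene's start (RefSeq, GRCh38.p14), at chr12:85874045-85874344, chr11:102110197-102110496 and chr4:41256678-41256977, all on the plus strand.
NTS: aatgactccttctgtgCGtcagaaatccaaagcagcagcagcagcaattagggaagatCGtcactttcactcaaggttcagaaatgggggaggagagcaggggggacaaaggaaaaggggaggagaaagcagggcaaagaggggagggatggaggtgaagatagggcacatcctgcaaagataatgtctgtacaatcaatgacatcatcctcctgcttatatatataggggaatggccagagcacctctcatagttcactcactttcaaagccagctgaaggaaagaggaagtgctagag
YAP1: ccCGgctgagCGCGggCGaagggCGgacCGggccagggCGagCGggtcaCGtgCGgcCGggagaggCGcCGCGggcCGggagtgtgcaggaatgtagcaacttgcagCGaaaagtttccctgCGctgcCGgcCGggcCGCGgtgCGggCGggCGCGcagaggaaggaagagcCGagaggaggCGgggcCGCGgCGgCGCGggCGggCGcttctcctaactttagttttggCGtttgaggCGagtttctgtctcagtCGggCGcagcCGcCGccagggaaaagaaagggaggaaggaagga
UCHL1: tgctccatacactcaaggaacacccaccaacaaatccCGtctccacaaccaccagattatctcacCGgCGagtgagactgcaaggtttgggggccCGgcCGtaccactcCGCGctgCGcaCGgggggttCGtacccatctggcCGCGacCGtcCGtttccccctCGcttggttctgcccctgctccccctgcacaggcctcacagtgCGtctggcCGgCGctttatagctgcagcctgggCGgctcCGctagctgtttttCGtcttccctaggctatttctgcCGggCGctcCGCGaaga
NTS, the nuclear gene with the most RNA, has 2 CpG in this window, and 7.96% of promoters have fewer. YAP1 has 40 CpG, and UCHL1, without a read, has 25. Genes with more than 1 listed promoter were left out, which kept 14747 of 35116 promoters. Over these 14747, the median was 27 CpG for 7259 genes at 1 CPM or more, 11 CpG for 3602 genes below 1 CPM with reads, and 5 CpG for 3886 genes without reads. The keratin genes KRT25 and KRT28, described next, are also on with few CpG, 3 and 2. DNA methylation was not measured here.

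Secreted and structural genes lay in local blocks. On chromosome 4 CXC chemokine genes, most of which attract neutrophils, are neighbours, and 8 of 9 from CXCL8 (start 73740541) to CXCL2 (start 74097040) reached 1 CPM. CXCL6 had 2013 to 2423 CPM (3777 TPM), CXCL5 653 to 995 CPM (1190 TPM), CXCL8 353 to 405 CPM (590 TPM) and CXCL1 172 to 220 CPM (525 TPM). PF4 alone, with 11 reads, stayed below 1 CPM, and PF4V1 and PF4 are near-identical copies whose reads may be split. CXCR1 and CXCR2, the receptors for the members that attract neutrophils, had 0 and 3 reads, and the interferon-induced chemokines CXCL9 and CXCL10 had none. Among 26 CC chemokines 1 reached 1 CPM, CCL26 at 1.28 CPM, and 20 had no read.

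On chromosome 17 a run of type I keratin genes was on: KRT25 (473 to 569 CPM, 1083 TPM), KRT28 (427 to 503 CPM, 963 TPM), KRT10 (160 to 291 CPM, 343 TPM), KRT222 (149 TPM), KRT24 (133 TPM), KRT26 (36.3 TPM) and KRT27 (12.9 TPM). KRT25 to KRT28 are keratins of the hair follicle and KRT10 one of the epidermis. The genes that follow, KRT12, KRT20, KRT23, KRT39 and KRT40, had 0, 8, 2, 0 and 0 reads, and farther on a stretch of keratin-associated and keratin genes from KRTAP4-8 to KRT33B held 24 protein-coding genes in a row without a read, after a shorter run of 8 from KRTAP1-5 to KRTAP2-4. Over all 55 keratins 8 reached 1 CPM and 32 had no read. A similar pair of claudin genes, CLDN17 (506 TPM) and CLDN8 (198 TPM), lie close together on chromosome 21. These blocks were picked out after their values were seen and were not tested.

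Receptor tyrosine kinases, the receptors through which most growth factors act, were led by an ephrin receptor. EPHA7 (chromosome 6, 93240020 to 93419687), which takes part in axon guidance, had 712 to 866 CPM with a median of 803 CPM and 171 ± 14.4 TPM (SD, n = 6). RYK, a Wnt receptor, came next at 48.8 ± 2.86 TPM, followed by IGF1R at 41.0 ± 5.62, PTK7 at 22.6 ± 1.71, EPHA2 at 21.6 ± 1.99 and DDR2 at 20.0 ± 6.28 TPM. EPHA7 lay above RYK in every library by far more than their spread, whereas PTK7, EPHA2 and DDR2 did not differ beyond theirs. Of 58 receptors 33 (56.9%) reached 1 CPM, near the 58.4% of all protein-coding genes, and 2, EPHA3 and STYK1, had no read. KIT, which is expressed in many small cell lung cancers, had 2 reads, MST1R and ROS1 had 1 each and RET was below 1 CPM. EGFR (15.1 to 20.3 CPM, 4.96 TPM), ERBB2 (11.9 TPM) and MET (6.48 to 23.8 CPM, 7.28 TPM) were at moderate levels. All 8 ephrin ligands reached 1 CPM, EFNB2 highest at 24.3 TPM.

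**Figure D3:**
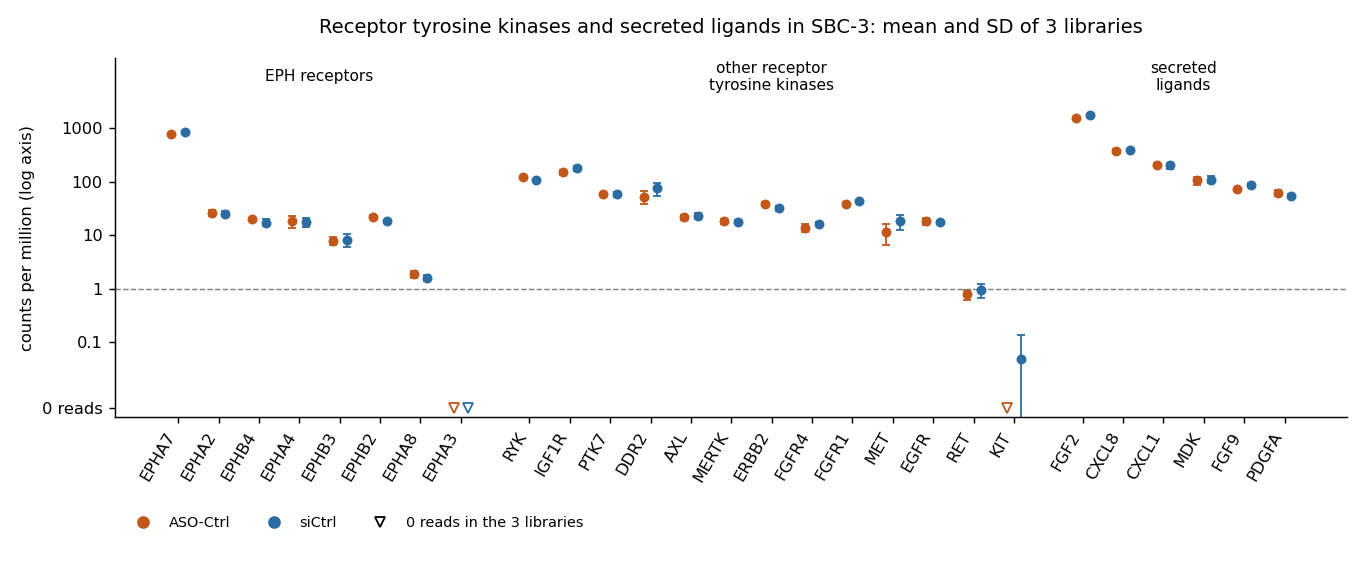
Mean CPM of receptor tyrosine kinases and secreted ligands on a log axis, ASO-Ctrl in orange on the left of siCtrl in blue, with bars for the SD of 3 libraries, bars that pass 0 running to the axis, open triangles for groups without a read and a dashed line at 1 CPM. EPHA7 stands at 803 CPM over all 6 libraries, FGF2 at 1644 CPM, and KIT and EPHA3 lie at 2 and 0 reads.

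Among 52 listed ligands, which leave out NTS, CXCL5 and CXCL6, 23 reached 1 CPM. FGF2, a basic fibroblast growth factor, was highest of the list with 1439 to 1758 CPM, a median of 1680 CPM and 851 TPM. Its relatives FGF20 (259 TPM) and FGF9 (57.8 TPM) were also on, while 8 of 22 members of the family had no read. All 4 of their receptors reached 1 CPM, FGFR4 at 10.8 TPM, FGFR1 at 8.36 TPM, FGFR3 at 4.0 TPM and FGFR2 at 1.69 TPM. MDK (midkine) had 172 TPM. FGF5, VEGFC, AVP (vasopressin) and NTF3 had no read. Among 46 G protein-coupled and nicotinic receptors, most of which respond to neuropeptides, lipids or acetylcholine, 12 reached 1 CPM, led by the nicotinic subunit CHRNA9 (33.1 TPM, 17.2 to 50.2 CPM), the sphingosine receptor S1PR1 (30.4 TPM) and CHRNA5 (10.2 TPM). CHRNA5 shares 28% of its exonic bases with another gene.

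Of the surface proteins that are targets of drugs or antibodies, 10 of 22 reached 1 CPM. CD24 (23.4 TPM), CD47 (22.6 TPM), CD276 (20.0 TPM, 27.4 to 37.2 CPM) and B4GALNT1 (19.8 TPM), an enzyme of ganglioside synthesis, led them. SSTR2 and CXCR4 were low at medians of 4.25 and 3.75 CPM. SEZ6, NCAM1 and CEACAM5 had no read.

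Notch receptors, their ligands and their targets were measured on both sides of the pathway. NOTCH2 (38.8 TPM, 211 to 236 CPM) was the highest receptor, ahead of NOTCH1 (12.9 TPM) and NOTCH3 (4.89 TPM), and NOTCH4 was below 1 CPM. Of the activating ligands JAG1 had 27.5 TPM and JAG2 15 TPM, whereas DLL1 had 1.25 TPM and DLL4 32 reads. The nuclear effector RBPJ had 56.2 TPM and the feedback gene NRARP 66.8 TPM. HES1, a target that represses proneural genes, had 11.1 to 13.9 CPM (20.5 TPM) and HEY1 17.8 TPM, while HES6 had 3.37 TPM and HES5 no read. In all, 16 of 22 reached 1 CPM.

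Antigen presentation was partly on. B2M had 225 to 342 CPM (173 TPM) and the class I heavy chains HLA-C and HLA-E 28.4 and 18.7 TPM, while HLA-B had 0.675 to 4.68 CPM with a median of 1.94 CPM. HLA genes vary between people and resemble each other, so their counts are uncertain. HLA-F, HLA-DRA, HLA-DRB1, HLA-DPA1 and HLA-DQA1 had no read. The interferon-induced genes split. IFIT1 (566 to 716 CPM, 487 TPM) and IFIT2 (227 to 281 CPM, 202 TPM), which bind foreign RNA, were high in every library. Both lie on the plus strand within the span of LIPA, a minus strand gene with a mean of 3476 CPM. Whether reads from LIPA entered their counts was not tested. MX1 was at a median of 1.45 CPM, and OAS1, OAS2 and OAS3, neighbours on chromosome 12 that sense double-stranded RNA, had no read. IFNB1 had no read either, and none of 17 type I interferon genes had one.

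HOX genes, whose order along the chromosome follows the position in the body where they act, gave a distinctive pattern. Of 39 genes 28 reached 1 CPM. In the HOXB cluster 9 of 10 did, with a cluster median of 91.2 TPM, from HOXB2 (119 TPM) through HOXB9 (186 TPM, 129 to 149 CPM) to HOXB13 (150 TPM, 110 to 149 CPM), a gene of the posterior body and the prostate. HOXB1 alone in that cluster stayed below 1 CPM. PRAC1, between HOXB9 and HOXB13, had 286 TPM. In the other clusters the higher numbers led: HOXA10 (40.6 TPM) and HOXA11 (34.7 TPM), HOXC10 to HOXC12 (8.92, 11.3 and 11.4 TPM), and HOXD10 (112 TPM) between HOXD9 (25.6 TPM) and HOXD11 (23.3 TPM). HOXA4, HOXA6 and HOXD13 had 7, 8 and 17 reads. HOXC5 had none, but it shares 67.3% of its exonic bases with other genes. HOTAIR, a noncoding RNA transcribed from the HOXC cluster between HOXC12 and HOXC11, had 13.1 to 16.4 CPM (19.5 TPM), and HOTTIP, beside HOXA13, had 26 reads.

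**Figure D4:**
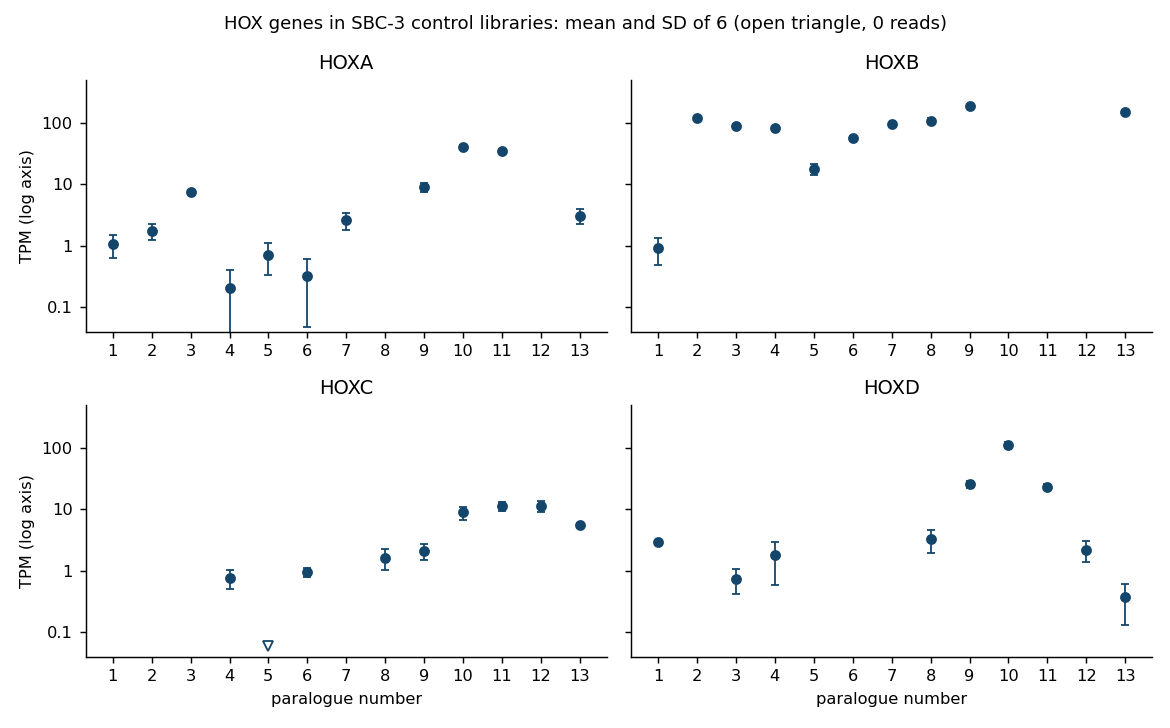
TPM of the HOX genes on a log axis against paralogue number, 1 panel for each cluster, with the mean and SD of 6 control libraries an open triangle for a gene without a read, and the lower bar of HOXA4 cut off by the axis. HOXB2 to HOXB9 and HOXB13 lie between 17.7 and 186 TPM, whereas in HOXA, HOXC and HOXD the highest values sit at numbers 9 to 12.

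Other developmental factors were mostly low. After SOX2, the SOX genes in order of level were SOX4 (64.9 TPM), SOX12 (28.8 TPM) and SOX13 (7.76 TPM), and SOX9, SOX11, SOX3, SOX14 and SOX17 had no read. TP63, the basal cell factor of squamous epithelia, was on at 63.0 to 80.0 CPM (33.8 TPM), but its companions KRT5 and KRT14 had no read. Of 20 lung and airway genes 3 reached 1 CPM, TP63, ABCA3 (26.8 TPM) and AGER (7.56 TPM), and the surfactant genes SFTPA1, SFTPA2 and SFTPC had no read. Of 21 PAX, GATA and sine oculis homeobox factors 10 reached 1 CPM, among them SIX4 (22.5 TPM), GATA3 (5.16 TPM) and GATA2 (4.78 TPM). Of 38 remaining homeobox and related factors 16 reached 1 CPM, with MEIS2 highest at 53.4 TPM and HNF4G at 21.5 TPM.

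Cancer-testis genes, which are normally confined to the germ line, were mostly without reads: 21 of 33 had none, and 6 reached 1 CPM. Those 6 included PBK (283 TPM), ATAD2 (209 TPM) and TTK (80.4 TPM), which are also genes of dividing cells. CTCFL (BORIS), the germ-line paralogue of CTCF, was on with 326 to 399 CPM, a median of 356 CPM and 140 TPM. MAGEA1, MAGEA3, MAGEA4 and MAGEA11 had no read, as had 344 of 388 olfactory receptor genes and 82 of 94 keratin-associated protein genes. Of the olfactory receptors 0 reached 1 CPM, whereas 6 of 24 bitter taste receptors (25%) did, against 58.4% of all protein-coding genes. TAS2R14 was the highest bitter taste receptor at 6.59 TPM.

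Long noncoding RNAs gave 1332 of 14795 genes at 1 CPM or more and 1.89% of the counts. MALAT1, a nuclear speckle RNA, led them by CPM with 1368 to 2164 CPM, a median of 1582 CPM and 671 TPM. TMEM161B-DT (554 to 837.5 CPM), LINC00461 (418 to 475 CPM), TUG1 (383 to 464 CPM), NORAD (375 to 433 CPM), SNHG29 (354 to 466 CPM), CASC19 (291 to 443 CPM), JPX (290 to 376 CPM) and LINC01140 (238 to 442 CPM) were among the 10 with most reads per library. An unnamed gene, ENSG00000270953, had 352 CPM and 1978 TPM, above MALAT1 per length. The order by TPM differed among the others too: NORAD had 257 TPM, SNHG29 192 TPM, LINC01140 161 TPM and TUG1 146 TPM. The long gene TMEM161B-DT had 63.9 TPM. JPX shares 60.5% of its exonic bases with another gene. NEAT1, the scaffold of paraspeckles, had 217 to 436 CPM with a median of 277 CPM and 46.6 TPM. In the list of 58 well-studied noncoding RNAs matched by name, 37 reached 1 CPM. TERC, RMRP and RPPH1 had no read. They lack a poly(A) tail and overlap other exons, and whether this bears on their counts was not tested.

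MIR17HG (chromosome 13, 91347820 to 91354579), the host of an oncogenic microRNA cluster, had 86.0 to 99.15 CPM with a median of 92.8 CPM and 85.7 TPM. All 6 of the microRNAs below lie within it, and their seeds (capitals) fall into 4 groups: miR-17-5p with miR-20a-5p, miR-19a-3p with miR-19b-3p, and 1 each for miR-18a-5p and miR-92a-3p (RefSeq, GRCh38.p14).
miR-17-5p: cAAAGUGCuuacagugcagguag
miR-20a-5p: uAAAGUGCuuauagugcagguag
miR-18a-5p: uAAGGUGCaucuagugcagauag
miR-19a-3p: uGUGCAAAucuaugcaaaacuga
miR-19b-3p: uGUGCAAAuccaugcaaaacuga
miR-92a-3p: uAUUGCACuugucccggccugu
The host RNA varied little between libraries, and its level does not give that of the mature microRNAs.

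How many genes were called between the control oligonucleotides depended on whether the replicate number entered the fit. Between ASO-Ctrl and siCtrl, 72 of 15869 genes tested (0.454%) were called at an adjusted p under 0.05 (edgeR quasi-likelihood test, Benjamini-Hochberg), 19 higher and 53 lower in ASO-Ctrl. With the replicate number as a block the same test called 351 of 15869, all 72 among them. The counts, fold changes and adjusted p-values that follow come from fits without the block. The count was 21 without ASO-Ctrl replicate 2, 33 without ASO-Ctrl replicate 1, 24 without siCtrl replicate 3 and 42 without siCtrl replicate 1. Of 443 list genes tested, 2 were called. BDNF, a neurotrophin, had 6.82, 4.12 and 5.66 CPM in ASO-Ctrl, against 13.6, 9.0 and 19.2 CPM in siCtrl. The groups did not overlap, and BDNF had a log2 fold change of -1.4 (SE 0.24, edgeR adjusted p = 0.0062). CDK6, the G1 kinase, had 179, 183 and 190 CPM in ASO-Ctrl and 221, 234 and 269 CPM in siCtrl, again without overlap, a log2 fold change of -0.41 (SE 0.09, edgeR adjusted p = 0.0297). SORL1, named above as a receptor of neurotensin, averaged 30.9 CPM in ASO-Ctrl and 67.7 CPM in siCtrl, a log2 fold change of -1.15 (SE 0.17, edgeR adjusted p = 0.00156). Outside the lists, GPRIN3 had means of 7.01 CPM in ASO-Ctrl and 34.6 CPM in siCtrl (log2 fold change -2.34, SE 0.32, edgeR adjusted p = 0.00201), and PPP2R1B averaged 232 CPM in ASO-Ctrl and 451 CPM in siCtrl (log2 fold change -0.97). PTX3 averaged 689 CPM in ASO-Ctrl and 444 CPM in siCtrl (log2 fold change 0.62). YAP1, NEUROD1, SOX2, NTS and HMGA2 had log2 fold changes of -0.17, 0.36, 0.03, -0.12 and -0.17. None was called without the block, which does not show that they were equal. HMGA2 values did not overlap between the groups, at 1936 to 2103 CPM in ASO-Ctrl and 2138 to 2285 CPM in siCtrl. Values of YAP1, NEUROD1, SOX2 and NTS overlapped. Calls for these genes with the block are not reported here. The sequence of either oligonucleotide, and any effect it has of its own, cannot be told apart from the kind of molecule here.

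**Figure D5:**
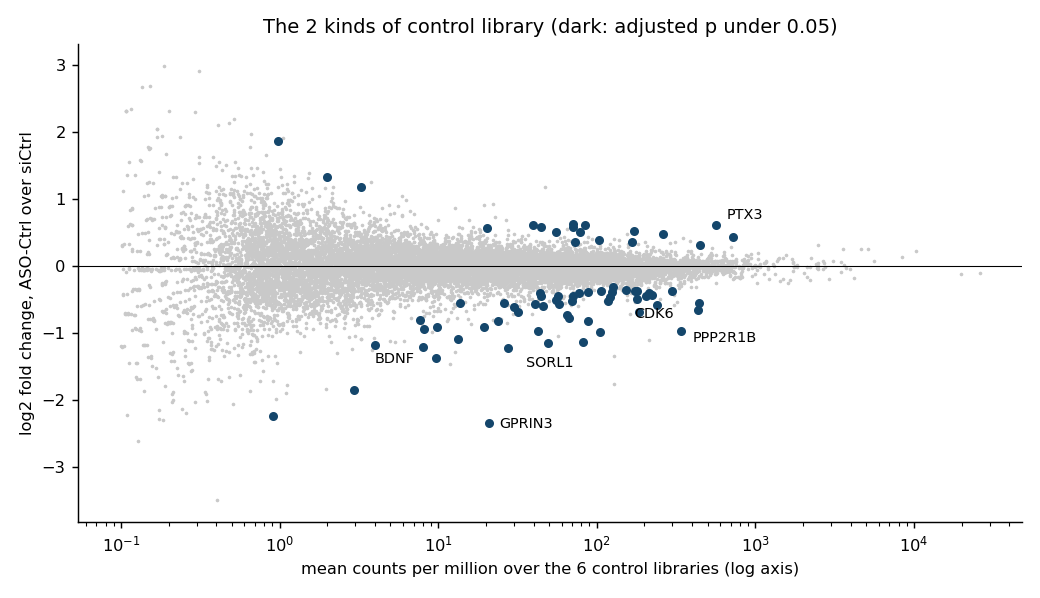
Log2 fold change of ASO-Ctrl over siCtrl against mean CPM over the 6 control libraries (log axis) for 15653 genes tested and at 0.1 CPM or more; dark points are the 72 genes called by edgeR at an adjusted p under 0.05. The called genes include GPRIN3 at -2.34 and BDNF at -1.4, and most genes above 10 CPM lie close to 0.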

How the data were processed

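Poly(A)-selected RNA of SBC-3 was sequenced in 24 libraries of 8 groups; the 6 libraries of ASO-Ctrl and siCtrl are described. The authors deposited raw counts per gene for 60605 Ensembl genes. Reads were trimmed with cutadapt 4.2, aligned to hg38 with STAR 2.7.5a and counted by featureCounts (Subread 2.0.3), with DESeq2 1.38.1 also named, per the submitters' processing notes. No source used here gives the annotation release, the strand setting or the handling of multimapping reads, so overlapping, antisense and duplicated genes are uncertain. The file headers give the exonic length of each gene.

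CPM and TPM were computed from the deposited counts. Symbols matched 60463 genes; GENCODE v29 biotypes matched 58337. Means, SD, counts and lists carry no test. ASO-Ctrl minus siCtrl was tested with edgeR 4.0.16 (quasi-likelihood, TMM, robust, filter by group) in R 4.3.3, fitted on all 24 libraries; the procedure was tested on simulated data. DESeq2 1.42.0, other scalings, thresholds and left-out libraries served as alternatives. Deviations from the group means correlated between libraries of the same number (r = 0.33, 0.158 and 0.378 for numbers 1, 2 and 3, over 0.1 each), so the numbers pair the libraries; the labels do not say what a number marks. The paired permutation tests of library shares and FN1 were added after the data were seen.

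The members and the 26 lists (756 genes found) were chosen with earlier results of these data known. Named genes are the lineage markers, the 4 highest by TPM and up to 4 with fewest reads of each list, all of short lists, the 15 highest protein-coding and 10 highest noncoding genes, list genes called between the controls, and members of families in order of level. Others, including the receptors of neurotensin and chemokines, the chemokine, keratin, claudin and taste receptor genes, granins, suppressors, hosts and the called genes outside the lists, were named after their values were seen. CpG and seed matches were counted in RefSeq promoters and GENCODE v29 transcripts. Some genes of these lists are not reported here by name; the list counts include them.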

Additional observations from a re-analysis of the deposited data

Results flagged for a closer look

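Among 124 named genes at 1 CPM or more, tested for a library far from the other 5, 2 were flagged. That is fewer than the about 1 in 20 such groups that chance alone would flag. VHL was lowest in ASO-Ctrl replicate 1 at 122 CPM, with 133 to 139 CPM in the other 5 libraries. AVIL was highest in siCtrl replicate 3 at 7.76 CPM, with 2.62 to 4.22 CPM in the other 5.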

How the results depend on the processing

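The count of genes at 1 CPM or more and the count without reads stayed within 1.5 times under every scaling, threshold, group and left-out library tried. The number of genes called between ASO-Ctrl and siCtrl did not: 72 became 351 with the replicate block, 153 without a filter on low counts, 132 with DESeq2, 42 with the 6 control libraries fitted alone and 13 at a change of at least 2-fold, and leaving out 1 library at a time gave 21 to 53; fewer samples enter those fits, and the cause of the other differences was not tested. The 10 genes with most reads held 9.17% of counts, and 5.06% of the nuclear counts with mitochondrial genes left out. At 5 CPM in place of 1 CPM, list counts fell to 8 for neuroendocrine effectors, 0 for tuft, 4 for epithelial, 10 for mesenchymal, 5 for receptors of neuropeptides, lipids and acetylcholine, 15 for ligands, 5 for surface targets, 9 for Notch, 10 for innate sensing and 6 for PAX, GATA and sine oculis homeobox genes; at 0.5 CPM, 1 marker of other cell types (ALB) counted. Leaving mitochondrial genes out of the total moved 52 levels of single genes by more than their SD, which the smaller total sets by construction. BDNF moved by more than 1.5 times, to 5.53 CPM in ASO-Ctrl alone against 9.74 CPM over all 6. ASO-Ctrl minus siCtrl was 0.441 percentage points for the mitochondrial share and -0.139 for the NTS share. Pairing by replicate number cannot show whether these differences are stable. The smallest p of the exact permutation test is 0.1 unpaired and 0.25 paired, so neither form could reach 0.05. Depth sets the limit of 0.0424 CPM for genes without reads.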

Other observations

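The BEX and TCEAL genes, small acidic proteins of the X chromosome with roles in neurotrophin signalling and transcription elongation, held several abundant members. Of 14 members 10 reached 1 CPM, with a family median of 130 TPM. BEX3 had 450 to 593 CPM with a median of 511.5 CPM (1635 TPM), and TCEAL9 had 593 to 708 CPM with a median of 620 CPM (1116 TPM). TCEAL7 lay within a narrow range, 170 to 176 CPM (529 TPM). TCEAL2, TCEAL6 and BEX5 had no read. These genes were named after their values were seen, and the family was not tested.

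Several bitter taste receptor genes of chromosome 12 were measured at low levels per length, TAS2R14 at 6.59 TPM, TAS2R20 at 5.18 TPM, TAS2R19 at 5.17 TPM and TAS2R31 at 4.66 TPM. Genes of this family resemble each other, and 21% of the exonic bases of TAS2R14 are shared with other genes, so reads among them may be split. Runs of protein-coding neighbours without a read were found in olfactory receptor clusters of chromosome 11, with 31 genes from OR4A16 to OR8H1 and 26 from OR51D1 to HBG2.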
